A study of Mus musculus with 12 samples.

Results

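Cytosine modification was examined at 9 genes of the photoreceptor ribbon synapse, Ctbp2, Bsn, Pclo, Cabp4, Cacna2d4, Cplx3, Cplx4, Egflam and Elfn1, out of 21938 protein-coding genes of the mouse. The genes were chosen for the known role of their products at this synapse, at a time when earlier results of these data were known. Every differentially methylated region (DMR) that overlapped a gene, extended by 5 kb on each side, was counted to it. These loci held 214 of the 193836 regions found by whole-genome bisulfite sequencing (WGBS) and 363 of the 592906 regions found by bACE-seq. WGBS reads 5-methylcytosine (5mC) and 5-hydroxymethylcytosine (5hmC) together, whereas in bACE-seq a deaminase removes the signal of 5mC and 5hmC alone is read.

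The libraries were made from genomic DNA of whole retina at postnatal day 21 from C57 BL/6J mice, with 3 libraries for each of 2 genotypes in each assay. Cre- controls, labelled WT, came from breeders without the Cre transgene. In Tet tcKO animals floxed Tet1, Tet2 and Tet3 were deleted by Chx10-Cre-GFP, a transgene active in retinal progenitors and carried in double dose because its expression is mosaic, so cells that do not arise from these progenitors keep the genes. Each DNA sample pooled the retinas of a pair of animals. The lists give 1 mean level per genotype and region, so no spread between libraries, read depth or p-value could be computed here, and every level below is a group mean in percent. A region is listed because its genotypes differed, so the difference within a region is what selected it, and the absence of a region does not show an unchanged level.

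Rod and cone photoreceptors release glutamate continuously from a ribbon, a plate-like scaffold that tethers synaptic vesicles above clustered calcium channels, and bipolar and horizontal cell processes invaginate beneath it. The main component of the ribbon is RIBEYE, made from an internal start site of Ctbp2, while the upstream start sites of the same gene encode the transcriptional corepressor CtBP2. TET enzymes oxidise 5mC to 5hmC as the first step of active demethylation, and 5hmC accumulates in the bodies of genes used by mature neurons.

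The sequences at 5 start sites carry the contrast described below, since the start sites of RIBEYE, Cabp4 and Cacna2d4 were poor in CpGs and lay inside regions of higher WGBS level, whereas those of Bsn and of the CtBP2 transcript were rich in CpGs and did not. Each is DNA upstream of a start site in GRCm38 (mm10), read 5′ to 3′ on the strand of the gene, with CpGs in capitals. The first lies on the minus strand at chr7:133015491-133015740, between positions -492 and -243 relative to the RIBEYE start, and holds 3 CpGs. The Cabp4 stretch, on the minus strand at chr19:4139610-4139786, ends at the base before the start and holds 1 CpG. The Cacna2d4 stretch, on the plus strand at chr6:119236276-119236525, holds 0 CpGs. The CtBP2 stretch, on the minus strand at chr7:133123426-133123657, between positions -290 and -59, holds 18 CpGs in 232 bases. The Bsn stretch, on the minus strand at chr9:108190385-108190634, holds 32 in 250 bases. Within 500 bp on each side of the start there were 25 CpGs at RIBEYE, 11 at Cabp4, 10 at Cacna2d4, 91 at CtBP2 and 92 at Bsn. The median over the longest coding transcripts of all genes was 42.
Ctbp2, before the RIBEYE start: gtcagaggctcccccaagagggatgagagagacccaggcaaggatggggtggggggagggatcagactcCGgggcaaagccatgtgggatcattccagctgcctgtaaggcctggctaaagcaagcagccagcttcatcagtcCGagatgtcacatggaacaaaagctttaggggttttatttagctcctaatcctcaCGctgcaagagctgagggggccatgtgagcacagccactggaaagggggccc
Cabp4: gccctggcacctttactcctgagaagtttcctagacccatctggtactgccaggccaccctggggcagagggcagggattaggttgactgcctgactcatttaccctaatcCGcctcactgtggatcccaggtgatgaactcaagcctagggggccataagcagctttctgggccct
Cacna2d4: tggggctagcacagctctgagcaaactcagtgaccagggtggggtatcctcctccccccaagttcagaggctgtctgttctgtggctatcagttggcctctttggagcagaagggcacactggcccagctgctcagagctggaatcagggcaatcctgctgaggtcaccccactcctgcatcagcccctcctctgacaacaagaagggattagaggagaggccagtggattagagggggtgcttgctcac
Ctbp2, before the CtBP2 start: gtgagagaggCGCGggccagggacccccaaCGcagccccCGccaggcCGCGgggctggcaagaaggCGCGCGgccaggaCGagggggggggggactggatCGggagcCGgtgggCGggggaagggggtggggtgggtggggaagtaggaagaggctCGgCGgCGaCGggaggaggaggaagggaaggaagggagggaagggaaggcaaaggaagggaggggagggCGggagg
Bsn: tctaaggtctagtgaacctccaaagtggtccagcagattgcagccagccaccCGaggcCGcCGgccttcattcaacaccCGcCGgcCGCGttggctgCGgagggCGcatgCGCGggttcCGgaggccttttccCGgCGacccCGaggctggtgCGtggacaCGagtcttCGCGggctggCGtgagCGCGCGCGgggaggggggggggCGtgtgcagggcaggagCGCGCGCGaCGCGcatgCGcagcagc

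At the 9 loci 212 WGBS regions had a higher level in Tet tcKO retinas (gains) and 2 a lower one. Over the whole list 98.6% of regions were higher, so the direction is that of the list. All 363 bACE-seq regions at these genes had less 5hmC in Tet tcKO (5hmC losses), as did 592697 regions of the whole list, 100% after rounding. In gains the WGBS level averaged 56.0% in Cre- retinas and 77.6% in Tet tcKO retinas (means weighted by CpGs). This is a rise of 21.6 percentage points, against 17.4 points over all gains. In 5hmC losses 5hmC averaged 22.1% and 5.64% in the same order, so 25.5% of it was kept, against 24.0% over the whole list. In whole-retina DNA a different level per cell and a different mix of cell types cannot be told apart.

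Regions of both kinds covered a larger share of the 9 loci than of the genome. Of their 11592 CpGs, 2892 lay in gains, or 24.9% (95% Wilson interval 24.2 to 25.7, counting error only, with neighbouring CpGs not independent), against 8.61% of all CpGs of the genome. The share by bases was 15.2%. In 5hmC losses lay 7929 of these CpGs, or 68.4% (67.5 to 69.2), against 34.4% of the genome. Gains covered the largest share at Cplx4, with 69.9% of its CpGs, followed by Cplx3 (48.3%), Ctbp2 (41.9%), Cabp4 (33.7%), Cacna2d4 (28.6%), Bsn (24.0%), Elfn1 (21.8%), Egflam (17.5%) and Pclo (5.14%). The median over the 9 genes was 28.6%, the median over all protein-coding genes 6.18%, and 8 of the 9 lay above the latter, with Pclo the exception. For 5hmC losses the shares ran from 46.8% at Pclo to 81.1% at Cplx4, with a median of 72.6% against 37.2% over all genes, and all 9 lay above that median. These are descriptions of loci that were not drawn at random, and 76.8% of all protein-coding genes had at least 1 gain and 88.3% at least 1 5hmC loss.

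**Figure D1:**
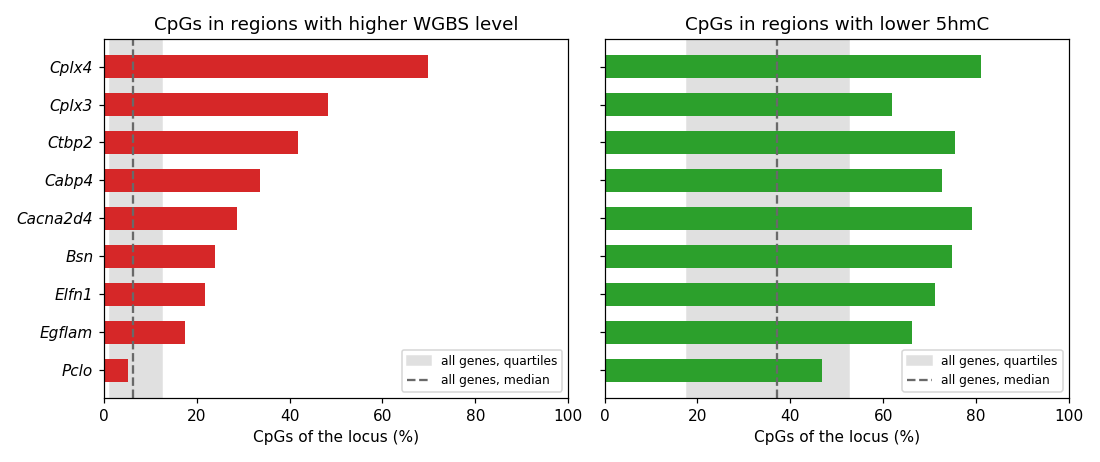
Share of the CpGs of each locus (gene and 5 kb on each side, percent, horizontal axis) in WGBS gains (left) and in 5hmC losses (right), 1 bar per gene, with the median (dashed) and quartiles (grey) of all protein-coding genes. Gains cover from 5.14% of the CpGs at Pclo to 69.9% at Cplx4, and the 5hmC losses cover more than the median of all genes at each of the 9.

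Ctbp2 (chr7:132987563-133124354, minus strand) encodes the ribbon protein RIBEYE and the corepressor CtBP2, from start sites 108 kb apart, and its locus had 55 gains and 40 5hmC losses. The RIBEYE start lay inside a gain of 17441 bp and 264 CpGs at chr7:132999306-133016746, whose WGBS level went from 36.0% in Cre- to 75.8% in Tet tcKO. This was the gain of the locus with the most CpGs and with the greatest rise, 39.8 points, and it covered all 50 CpGs of the long first coding exon that is particular to RIBEYE. It overlapped 9 5hmC losses, with a mean 5hmC level of 28.6% in Cre- and 8.24% in Tet tcKO.

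The rest of the locus differed in degree along its length. Levels here give each CpG in a gain the mean of its whole region. Over the RIBEYE transcript 80.6% of 391 CpGs lay in gains, with levels of 43.8% and 78.5%. Between the RIBEYE start and the CtBP2 start 36.0% of 1584 CpGs did, with levels of 62.6% and 82.4%. Most of the difference between these stretches was therefore in the Cre- level, since the Tet tcKO levels were within a few points of each other. 5hmC losses covered both stretches alike, with 77.2% and 78.9% of their CpGs. Within 2 kb of the RIBEYE start 97.6% of CpGs were in the gain, whereas within 2 kb of the 2 CtBP2 starts 4 and 0 of 349 CpGs were.

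5hmC at Ctbp2 was the highest of the 9 genes, with a mean of 28.7% in Cre- and 7.80% in Tet tcKO over its losses. The longest run, 12872 bp and 192 CpGs at chr7:133019828-133032699 upstream of the RIBEYE start, fell from 30.8% to 8.46%. The highest Cre- level, 42.7% against 11.4% in Tet tcKO, was in a region downstream of the gene at chr7:132986104-132986553. No 5hmC loss covered the RIBEYE start, and the nearest, 188 bp into the transcript and of 5 CpGs, had 9.75% in Cre- and 4.45% in Tet tcKO. A region of 17 CpGs upstream of the start had 40.9% and 11.9% at chr7:133016161-133017157. GENCODE also lists a read-through transcript of Fgfr2 that spans this locus, so 53 gains counted here lie in that gene record too. A further 16 of the 212 gains at the 9 loci lie in another protein-coding gene, among them the gain over the Cabp4 start (Gpr152) and 3 gains at Cplx3 (Lman1l).

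**Figure D2:**
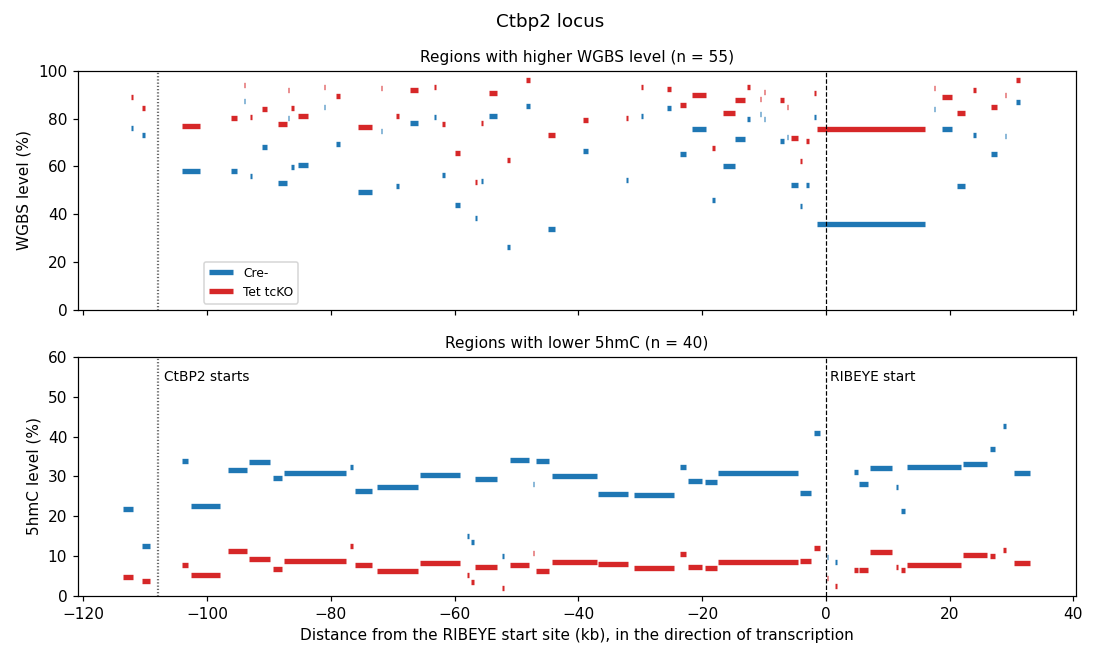
Regions of the Ctbp2 locus by distance from the RIBEYE start (kb, in the direction of transcription) with their WGBS level (top, 55 gains) and 5hmC level (bottom, 40 losses) in percent, each bar spanning 1 region, blue for the Cre- mean and red for the Tet tcKO mean. The dashed line marks the RIBEYE start, covered by a gain that runs from 36.0% to 75.8%, and the dotted lines mark the CtBP2 starts, which no gain covers.

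Bsn and Pclo encode bassoon and piccolo, large scaffold proteins that anchor the ribbon and organise the active zone. Bsn (chr9:108096022-108190384, minus strand) had 30 gains, with mean WGBS levels of 66.3% and 79.1%, the smallest mean rise of the 9 genes at 12.7 points. Its start lay outside all gains, 610 bp from the nearest, an intronic region of 23 CpGs at 58.9% in Cre- and 73.5% in Tet tcKO. The greatest rise was in an intron about 41 kb into the gene at chr9:108148154-108150912, from 50.2% to 75.5%. The gain with the most CpGs, 46, lay in a coding exon and went from 69.3% to 77.8%. Bsn also had the lowest 5hmC of the 9, 15.8% in Cre- and 4.14% in Tet tcKO over 48 losses, although these covered 74.8% of its CpGs.

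Pclo (chr5:14514918-14863459, plus strand) was the longest locus and had few gains, 14, beside 93 5hmC losses. Gains nevertheless included the greatest rise among the 9 genes. In a region of 19 CpGs over a coding exon and intron, 208 kb from the start at chr5:14722009-14723869, the WGBS level went from 27.5% in Cre- to 78.0% in Tet tcKO, which is 50.4 points higher. A 5hmC loss of 5 CpGs overlapped 18.4% of the bases of this gain and had 28.6% in Cre- and 5.89% in Tet tcKO. The 5hmC level of the gain as a whole is not given by the lists. The gain nearest to the start, at 1142 bp, went from 71.3% to 89.1%. An intronic 5hmC loss 55 kb from the start at chr5:14569422-14570137 had the highest Cre- 5hmC of all 363 regions, 50.7%, and 8.04% in Tet tcKO, over 5 CpGs. The 5hmC loss with the most CpGs, 35, had 8.89% in Cre- and 2.54% in Tet tcKO, so 5hmC varied widely within this gene.

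Cabp4 and Cacna2d4 act on calcium entry at the terminal. CaBP4 is a calcium-binding protein that modulates the Cav1.4 channel, and Cacna2d4 encodes the auxiliary alpha2delta-4 subunit of that channel. At both genes the start site lay inside a gain. Cabp4 (chr19:4135423-4144033, minus strand) had 6 gains, and the one over the start, 3417 bp and 53 CpGs at chr19:4137111-4140527, went from 43.0% in Cre- to 75.8% in Tet tcKO. Within 2 kb of the start 98.1% of CpGs were in gains. A further gain over a coding exon about 3.3 kb into the gene had the lowest Cre- level there, 17.3%, and 40.9% in Tet tcKO. Its 8 5hmC losses had a mean of 22.5% in Cre- and 5.38% in Tet tcKO, and the one with the most CpGs, 97, lay upstream at chr19:4141237-4147298 with 23.0% and 4.94%.

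Cacna2d4 (chr6:119236526-119352407, plus strand) had 38 gains and 53 5hmC losses. The gain over its start had the most CpGs, 59 over 5028 bp at chr6:119235633-119240660, and its WGBS level went from 41.0% in Cre- to 72.5% in Tet tcKO. The greatest rise was 45 kb into the gene at chr6:119280541-119281934, over a coding exon and intron, from 26.2% to 66.7%. The 5hmC loss nearest to the start, ending 287 bp before it at chr6:119235237-119236239, had the highest Cre- 5hmC of the gene, 37.6%, and 6.73% in Tet tcKO.

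Cplx3 and Cplx4 encode the complexins of retinal ribbon synapses, which bind the SNARE complex and regulate vesicle release. Cplx4, on chromosome 18, had the largest share of its CpGs in gains, and 99.9% of protein-coding genes had a lower one. Its 8 gains had a mean WGBS level of 35.7% in Cre-, the lowest of the 9 genes, and 68.1% in Tet tcKO. The gain over the start, of 3283 bp and 59 CpGs, went from 29.2% to 72.5%, and the next one along the gene, in introns centred 3.9 kb from the start, from 52.6% to 81.3%. Cplx4 had 12 5hmC losses with means of 23.6% and 6.47%, and its start lay inside one of 66 CpGs at 22.7% in Cre- and 7.14% in Tet tcKO.

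Cplx3 (chr9:57599992-57606281, minus strand) had 7 gains and 7 5hmC losses. Its gains ended at lower levels than those of the other genes, 63.2% in Tet tcKO against 46.7% in Cre-. The gain nearest to the start of the longest coding transcript, 74 bp into it at chr9:57606012-57606207, was at 4.11% in Cre- and 8.47% in Tet tcKO over 12 CpGs, so both genotypes were nearly unmodified there. The gain with the most CpGs and the greatest rise, 25 CpGs over a coding exon and intron at chr9:57604436-57605835, went from 22.3% to 42.9% and covered the start of the short transcript Cplx3-203. The highest 5hmC, 32.6% in Cre- and 8.91% in Tet tcKO, was upstream at chr9:57607196-57609997.

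Egflam encodes pikachurin, a matrix protein that links photoreceptor terminals to bipolar dendrites through dystroglycan, and Elfn1 a leucine-rich repeat protein of rods that binds mGluR6 across the synapse. Egflam (chr15:7206120-7398395, minus strand) had 35 gains, with means of 62.3% and 81.7%, and 81 5hmC losses. Its gain nearest to the start, 1132 bp upstream at chr15:7399483-7399881, went from 40.7% to 61.8%. The greatest rise was 13 kb into the gene in an intronic region of 4 CpGs at chr15:7385033-7385303, from 32.0% to 80.1%, with no 5hmC loss over it. The highest 5hmC, 34.7% in Cre- and 13.2% in Tet tcKO, was in an intron nearby at chr15:7384223-7384603. The 5hmC loss nearest to the start, 664 bp upstream, had 3.82% in Cre- and 0.489% in Tet tcKO.

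Elfn1 (chr5:139907943-139974722, plus strand) had 19 gains and 21 5hmC losses and was the only one of the 9 with no gain within 2 kb of a start, its nearest lying 2550 bp upstream. The greatest rise was in the intron 49 kb from the start, in a region of 18 CpGs at chr5:139957019-139957835, where the WGBS level went from 19.2% to 62.8%. A 5hmC loss of 11578 bp and 157 CpGs overlapped 38.8% of its bases and averaged 29.6% in Cre- and 6.79% in Tet tcKO over its own length, so the 5hmC level of the gain itself is not given by the lists. The middle 300 bases of this region, at chr5:139957278-139957577 on the plus strand, are shown because the level in Cre- was low in the middle of an intron, with their 4 CpGs in capitals.
Elfn1, intron: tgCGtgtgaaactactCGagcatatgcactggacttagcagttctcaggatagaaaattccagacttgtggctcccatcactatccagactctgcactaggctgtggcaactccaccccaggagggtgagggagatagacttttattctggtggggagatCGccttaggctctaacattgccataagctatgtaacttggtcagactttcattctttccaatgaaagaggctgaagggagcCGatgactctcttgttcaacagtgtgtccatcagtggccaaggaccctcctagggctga
The gain with the most CpGs at Elfn1, 64 at chr5:139968436-139971356, went from 51.1% to 76.7% and lay mostly over intron and UTR, with 7 of the 131 CpGs of the coding exon in gains. The 5hmC loss with the most CpGs covered all 131 and had 20.7% in Cre- and 5.41% in Tet tcKO.

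**Figure D3:**
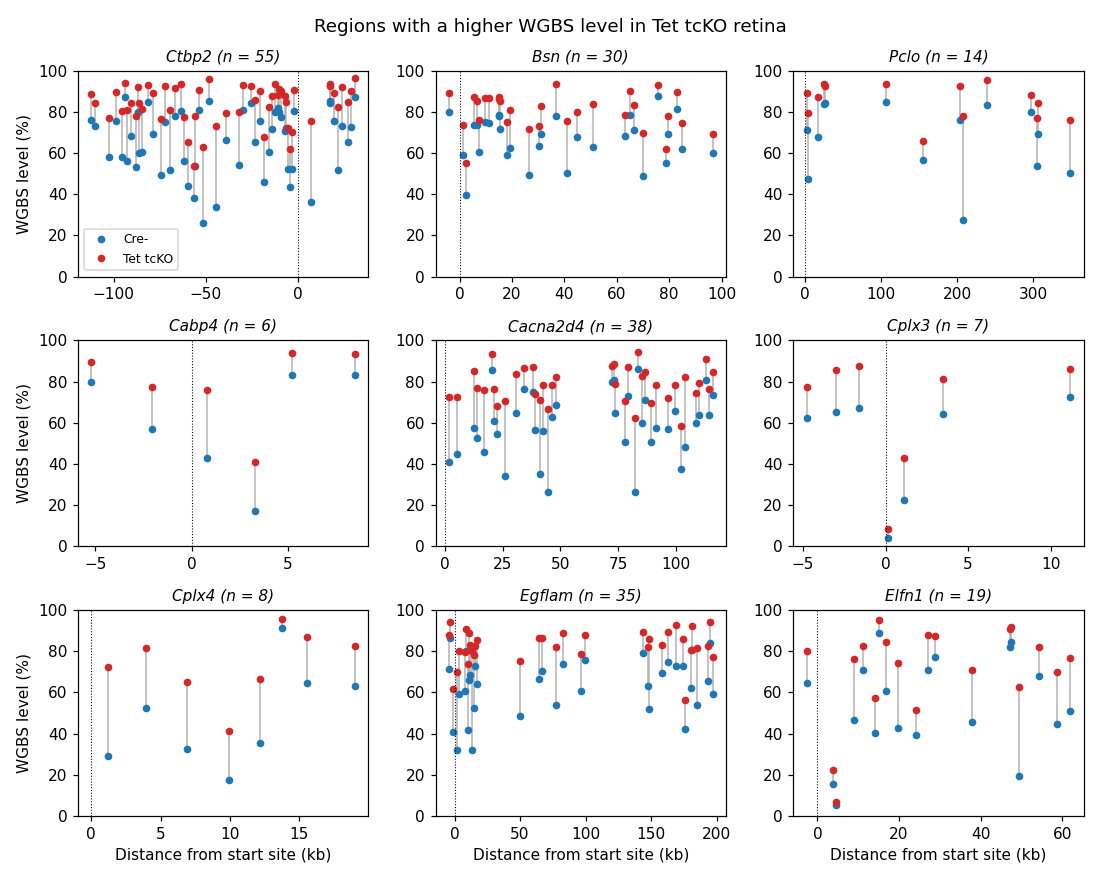
WGBS level (percent) of each gain in Cre- (blue) and Tet tcKO (red) retinas by the distance of its midpoint from the start of the longest coding transcript (kb), 1 panel per gene, with a grey line joining the group means of a region. The Cre- points vary more than the Tet tcKO points, with the lowest points near 4.11% at Cplx3 and the greatest rise, 50.4 points, at Pclo.

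Start sites were then compared across the 9 genes. The start of the longest coding transcript lay inside a gain at 4 of 9, namely at RIBEYE, Cabp4, Cacna2d4 and Cplx4. By any annotated protein-coding start, 5 of 9 genes had a start inside a gain, Cplx3 being the fifth, against 7.86% of all genes. A gain within 2 kb of a start was present at 8 of 9, against 51.3% of all genes. The WGBS level of gains was averaged over their CpGs within 2 kb of these 5 starts, that of Cplx3 being the start of Cplx3-203. Each CpG took the mean of its whole region, which can reach past this stretch. The level of the stretch itself is therefore not given by the lists. From Cre- to Tet tcKO these means went from 38.8% to 76.7% at RIBEYE, from 45.1% to 76.1% at Cabp4 and from 41.0% to 72.5% at Cacna2d4. They went from 29.2% to 72.5% at Cplx4 and from 20.0% to 35.5% at Cplx3. The first 4 of these region means ended within a few points of each other from different Cre- levels, and that of Cplx3 ended lower.

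The CpG content of the starts was compared with their place inside or outside gains. A start was called island-like where the 500 bp on each side had a GC content over 50% and a CpG observed/expected ratio over 0.6. At the 4 starts inside a gain the ratio was 0.320 for RIBEYE, 0.147 for Cabp4, 0.120 for Cacna2d4 and 0.461 for Cplx4, and none was island-like. The start of the longest Cplx3 transcript was not island-like either, but lay outside all gains. The starts of Bsn (0.816), Pclo (0.834), Egflam (0.664) and Elfn1 (0.672) and both CtBP2 starts (0.738 and 0.798) were island-like and lay outside all gains. Over all genes 7.34% of starts that were not island-like and 2.21% of island-like starts lay inside a gain. A gain within 2 kb was the other way round, found at 63.2% of island-like starts and 35.2% of the others. Of the longest coding transcripts only that of Cplx4 began inside a 5hmC loss, against 20.2% of starts that were not island-like and 2.14% of island-like ones. By any start 2 genes, Cplx4 and Cplx3, had one inside a 5hmC loss, against 18.3% of all genes, while all 9 had a 5hmC loss within 2 kb, against 79.9%.

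**Figure D4:**
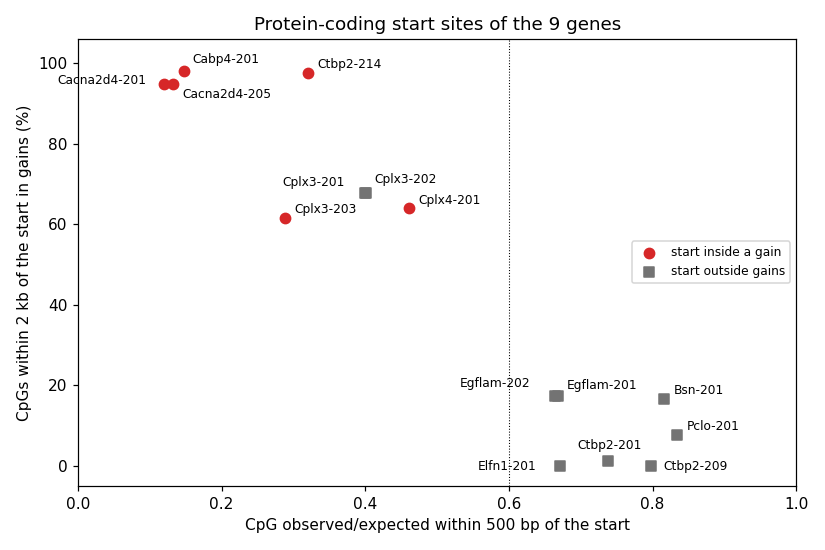
CpG observed/expected ratio within 500 bp of each protein-coding start of the 9 genes (horizontal axis) against the percent of CpGs within 2 kb that lie in gains (vertical axis), red circles for starts inside a gain and grey squares for starts outside, labelled by transcript, with the dotted line at 0.6. Ctbp2-214, the RIBEYE transcript, sits at 97.6%, and the other Ctbp2 transcripts, which encode CtBP2, sit at or near 0%.

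The letters TAATCC, the core of the site bound by the photoreceptor homeodomain factors CRX and OTX2, were searched on both strands from 250 bases before to 50 after the start of the longest coding transcript. They were found at RIBEYE, Cabp4, Cacna2d4 and Cplx4, the 4 genes whose longest coding transcript began inside a gain, and not in the windows of the other 5. The start of Cplx3-203 also lay inside a gain, and its window did not hold them. Of all windows at longest coding transcripts 6.9% held them, 11.0% of those at starts inside a gain and 6.69% of those at starts outside. By CpG content the share was 8.81% at starts that were not island-like, as these 4 were, and 4.59% at island-like ones. The stretches of 30 bases around them, apart from Cplx4, are given with TAATCC or its reverse complement in capitals, on the strand of the gene.
Ctbp2, chr7:133015351-133015380, minus strand: taaggtttcagaGGATTAataatttaggtc
Cabp4, chr19:4139663-4139692, minus strand: actcatttacccTAATCCgcctcactgtgg
Cabp4, chr19:4139694-4139723, minus strand: ggcagagggcagGGATTAggttgactgcct
Cacna2d4, chr6:119236480-119236509, plus strand: agGGATTAgaggagaggccagtGGATTAga
The Cacna2d4 stretch holds the letters at 2 places, 44 and 24 bases before the start, both reversed. The longer RIBEYE stretch shown above holds the letters once more, outside the searched window. One Cabp4 site is followed directly by the G of a CpG whose C is its last letter. The letters TGCTGA, part of the site bound by the rod factor NRL, were in the windows of Cacna2d4, Cplx4 and Cplx3, against 17.7% of all windows. These matches describe letters and say nothing of binding, and 4 windows are too few to set against the genome.

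Across the 212 gains the rise was larger where the Cre- level was lower. The 45 gains with a Cre- level under 50% had a median rise of 27.7 points and the 167 others one of 14.1, against 21.6 and 13.8 over the whole list. A rise of at least 20 points was seen in 74 of the 212, against 27.9% of all gains. The median rise was 15.8 points, close to the 15.4 of the whole list, so the higher mean at the 9 genes came with gains that hold many CpGs. Of the 212 gains 6 were 3 kb or longer, against 0.401% of all gains. A level cannot pass 100%, and the part of this bound in the difference was not tested.

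Gains and 5hmC losses lay over each other at these genes. Of the 212 gains 207, or 97.6%, overlapped a 5hmC loss, against 81.1% of all gains. Of the 363 5hmC losses 158, or 43.5%, overlapped a gain, against 24.1% of all losses. At Pclo 11.8% of the 5hmC losses did so, at Egflam 32.1%, at Ctbp2 87.5% and at Cplx4 91.7%. Where 1 CpG lay in regions of both lists, the WGBS level less the 5hmC level, each as the mean of its region, approximates 5mC. From Cre- to Tet tcKO this difference was 14.0% and 62.0% at Cplx4, 29.7% and 73.9% at Ctbp2, 30.3% and 73.1% at Cabp4 and 49.4% and 74.4% at Bsn. The Tet tcKO values of the 9 genes lay between 62.0% and 81.4%, a narrower range than the 14.0% to 49.4% of Cre-.

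**Figure D5:**
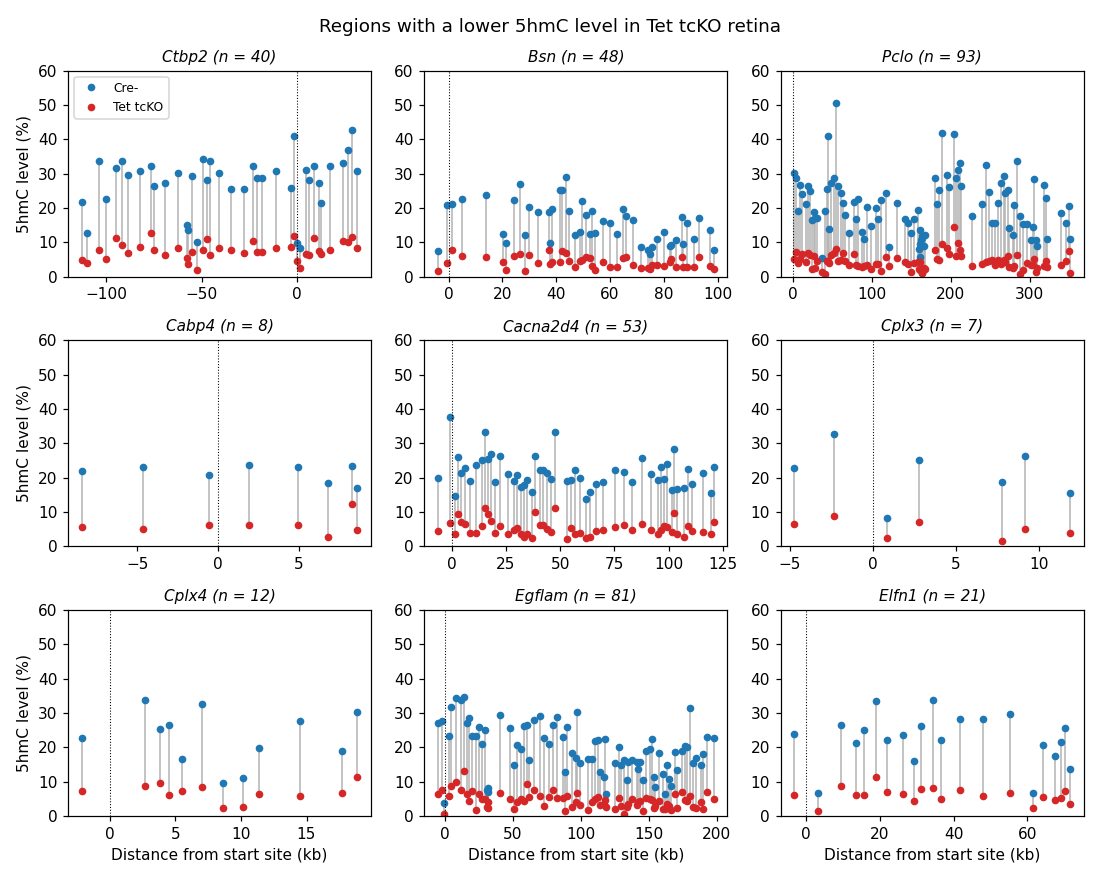
5hmC level (percent) of each 5hmC loss in Cre- (blue) and Tet tcKO (red) retinas by the distance of its midpoint from the start of the longest coding transcript (kb), 1 panel per gene, with a grey line joining the group means of a region. Levels in Cre- reach 50.7% at Pclo, whereas the highest in Tet tcKO is 14.3%.

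By position, gains covered 34.9% of the CpGs within 2 kb of the starts of the 9 longest coding transcripts, with levels of 39.3% and 70.1%, against 8.28% over all genes with levels of 36.3% and 50.9%. Each CpG took the mean of its whole region, so a region over several positions gave all of them the same level. Of the 313 CpGs in gains at starts 80 were at Ctbp2, 52 at Cabp4, 48 at Cplx3, 46 at Cplx4 and 36 at Cacna2d4. Each other gene had fewer, and at Elfn1 0 of 214 CpGs at the start were in gains. Outside these stretches coding exons had 22.6% of their CpGs in gains, introns and UTRs 23.0%, and the flanks upstream and downstream 32.7% and 17.6%. Positions here were set by the longest coding transcript with 5 kb on each side, not by the whole gene. Most of the stretch between the RIBEYE and CtBP2 starts is thus left out. The upstream flank of Ctbp2, with 28 of 40 CpGs in gains, and part of that of Cabp4 lie inside the gene. Over all genes the shares lay between 8.57% upstream and 12.1% in introns and UTRs, with coding exons close to the latter. By these region means the rise was 30.8 points at starts, 22.7 in introns and UTRs and 13.4 in coding exons. Over all genes it was 14.6, 18.0 and 13.2 points, with introns and UTRs ahead of starts. The rise at each position itself is not given by the lists. 5hmC losses followed another order, with 89.6% of CpGs in coding exons, 68.3% in introns and UTRs and 29.8% at starts. Over all genes these shares were 59.5%, 49.1% and 21.4%. At Ctbp2, Cplx3, Cplx4 and Elfn1 100% of the CpGs of these coding exons lay in 5hmC losses, out of 44, 6, 6 and 131 CpGs. Bsn and Pclo held 444 and 252 of the 1084 CpGs of these exons and had 89.9% and 88.5%. Cacna2d4 had 84.8% and Egflam 80.2%. Cabp4, with 5 of 11 CpGs or 45.5%, was the only gene below the share over all genes. The first coding exon of RIBEYE lies within 2 kb of the start and is not among these exons. Of its 50 CpGs 19, or 38%, lay in 5hmC losses.

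WGBS levels were lower in Tet tcKO in 2 regions, at Cacna2d4 and Egflam, and 4.9% of all genes had such a region. Neither lay within 2 kb of a start of the 9 genes, and 1.63% of all genes had one there. At Cacna2d4 an intronic region of 38 CpGs at chr6:119330410-119331031 had 19.7% in Cre- and 7.21% in Tet tcKO, with no bACE-seq region over it. It covers the start sites of Lrtm2, a gene on the opposite strand nested in Cacna2d4, and so may be counted to either gene. At Egflam an intronic region of 19 CpGs at chr15:7214411-7214569 had 75.4% and 60.4%, and the 5hmC loss over it had 15.4% and 2.61%. The WGBS level fell by 15.0 points there. The 5hmC values are means over a longer region, which also covers a gain at chr15:7216793-7216989 that went from 80.7% to 92.1%. The 5hmC change within the WGBS region itself is therefore not given by the lists. None of the 9 loci had a region of higher 5hmC in Tet tcKO, and 0.401% of all genes did.

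Other genes of the photoreceptor synapse were set beside these 9. Of 31 such genes, all 31 had a gain and a 5hmC loss, against 76.8% and 88.3% of all genes. A gain within 2 kb of a start was present at 30, against 51.3%, and a start inside a gain at 7, against 7.86%. Some of these loci are long, up to 2267 kb at Dmd against a median of 27.4 kb over all genes, and the part of length was not tested. The median share of CpGs in gains over the 31 genes was 13.6%. This was below the 28.6% of the 9 genes and above the 6.18% of all genes, and 28 of the 31 were above the latter. For 5hmC losses the median was 51.5%, with 26 of 31 above the median of all genes. The highest share in gains among ribbon and active zone genes was 54.8% at Unc119, a partner of RIBEYE, and the lowest 3.93% at Erc1. Among SNARE, complexin and vesicle genes Snap25 had the highest at 35.2%, among calcium channel genes Cacna2d2 at 28.5%, and among trans-synaptic and ON bipolar partners Lrit1 at 68.2%, with Dmd lowest at 2.52%. Cacna1f, the pore subunit of Cav1.4, had 9.21% of its CpGs in gains and its start inside one.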

How the data were processed

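Genomic DNA of whole retinas was profiled by WGBS and bACE-seq in 12 libraries, 3 per genotype and assay, grouped by the sample labels. Per the submitters' processing notes and the study's methods, reads were trimmed with Trim Galore (0.4.4), aligned to mm10 with Bismark (0.18.2), filtered to a mapping quality of at least 10, deduplicated with Picard and turned into CpG levels with MethylDackel (0.6.1), and DMRs were called with DSS with smoothing (p threshold 0.01, at least 3 CpGs and 50 bp, merged within 50 bp). The deposited lists give for each region the mean level of each genotype as a fraction from 0 to 1, made by the authors over the replicates of a genotype and printed here as percentages. The columns with the authors' differences and area statistics were not used. The first mean was taken as Cre- and the second as Tet tcKO, after the order in the names of the lists.

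Regions were joined to GENCODE M21 protein-coding genes with 5 kb flanks by an overlap of at least 1 bp, and CpGs were counted in GRCm38. Every region began and ended on a CpG. Levels of several regions were averaged with their CpGs as weights. Counting by loci was tested on simulated data with 2000 windows and 0 mismatches. Scripts ran in Python 3.11.15 with numpy 2.4.6, pandas 2.3.3, scipy 1.17.1 and matplotlib 3.10.9. Depth, spread and p-values could not be had from group means, so no test was made and the Wilson intervals cover counting error only. Smoothing borrows from neighbouring CpGs, so the ends of a region are less exact than its level.

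The 9 genes, the 31 further genes and the 2 motifs were chosen with earlier results of these data known. For each gene the text names the regions nearest to the start, those with the most CpGs, the greatest rise and the highest Cre- 5hmC, and every WGBS loss. The Cabp4 gain at 3.3 kb, the Cplx4 gain at 3.9 kb and the 5hmC loss upstream of the RIBEYE start were added after their values were seen. For the 31 genes the highest and lowest of each group and the paralogs are named, and Cacna1f was the lowest of the calcium channel genes. Lrit3 and Gpr179 fall outside this rule and are named for their values. Alternatives were other flanks, midpoints, minimum CpGs, minimum differences, start windows and weightings.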

Additional observations from a re-analysis of the deposited data

How the results depend on the processing

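Of 43 alternatives over 9 results, 21 left a count within 1.5 times its value or a share inside its Wilson interval, and 22 moved. Whether a result reversed was not checked. Requiring 10 CpGs left 103 gains and 223 5hmC losses, and a difference of at least 0.2 left 74 and 90. The share of CpGs in gains was 23.9% with flanks of 10 kb, 21.6% with a difference of at least 0.1, 15.2% by bases, 21.0% without Ctbp2 and 28.6% as the median of the loci. For 5hmC losses the share was 58.3% with a difference of at least 0.1, 51.7% by bases, 66.7% without Ctbp2 and 72.6% as the median of the loci. Requiring the start base itself inside a gain left 5 genes in place of 8, and requiring cover of at least 50% of a gain left 87.7% of gains with a 5hmC loss. The mean rise was 17.9 points unweighted, 23.9 weighted by bases and 20.2 without Ctbp2. The share of 5hmC kept was 24.5% as the median of single regions, 21.9% and 18.1% with 1 and 2 points subtracted from both levels for unconverted cytosines, and 24.8% without Ctbp2. For the moves other than those that leave regions or genes out the cause was not tested. The comparisons without Ctbp2, except for the mean rise and the 5hmC kept, the medians of the loci and the alternatives for starts inside a gain, 8 in all, were chosen after seeing the data.

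No paired analysis was possible because the lists hold 1 mean per genotype and carry no replicate values, and leaving out single replicates was not run for the same reason. The reads behind a level are not in the lists, so precision could not be set by depth.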

Other observations

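Paralogs of the 9 genes, chosen by family, were set beside them by the share of their CpGs in gains. Ctbp1 had 8.94% against 41.9% at Ctbp2, with a WGBS level that went from 72.6% to 88.0%, and the complexins of conventional synapses, Cplx1 and Cplx2, had 8.79% and 13.8% against 48.3% at Cplx3 and 69.9% at Cplx4. Among alpha2delta subunits Cacna2d1 had 9.79% and Cacna2d3 12.2%, while Cacna2d2, at 28.5%, was nearly level with the 28.6% of Cacna2d4. Elfn2, at 24.2%, exceeded the 21.8% of Elfn1. In 5hmC losses Cplx2 had 81.2% of its CpGs, against 61.8% at Cplx3 and 81.1% at Cplx4, and Elfn2 had 78.8% against 71.1% at Elfn1.

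Of the 9 trans-synaptic and ON bipolar partners 3 had a start inside a gain, Lrit1, Lrit3 and Gpr179, against 7.86% of all genes. The share of CpGs in 5hmC losses ran from 19.1% at Dmd to 94.2% at Gpr179 in this group. Its median was 57.4%, against 37.2% over all genes. In Lrit1 the mean WGBS level of gains went from 31.0% in Cre- to 66.4% in Tet tcKO.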
